A study of Arabidopsis thaliana and Arabidopsis lyrata subsp. lyrata and Arabidopsis halleri subsp. gemmifera with 10 samples.

Results

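The leaf transcriptome of an interspecific hybrid between Arabidopsis thaliana and Arabidopsis halleri was compared with that of its A. halleri parent. The comparison holds the 2 arrays labelled A. thaliana-A. halleri hybrid and the 2 arrays labelled A. halleri, 4 of the 10 arrays of the series, chosen by their titles alone. The other arrays are of A. thaliana (accession Col), A. lyrata ssp. lyrata and a hybrid of those species, with 2 arrays in each of 5 groups. The A. halleri plants belong to ssp. gemmifera, and the hybrid carries the genomes of A. thaliana and of this subspecies. All plants grew at 22 C under fluorescent light with 16 h of light and 8 h of dark, and mature leaves were taken before flowering, with no treatment named. The 2 arrays of a group are labelled biological replicates. How many plants went into each RNA sample, which species was the mother of the hybrid and how many chromosome sets it carries were not stated by the submitters in the labels. Biotin-labelled RNA made from 500 ng of total RNA was hybridized to Affymetrix ATH1 arrays, whose probes were designed on A. thaliana transcripts.

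Arabidopsis halleri is a perennial relative of A. thaliana that is known for tolerating and accumulating zinc and cadmium. In a hybrid, each nuclear gene can be transcribed from an allele of either parent, whereas chloroplasts and mitochondria usually come from the mother. A probe written from the A. thaliana sequence can bind an A. halleri transcript less well, so a signal that is higher in the hybrid can come from more transcript or from A. thaliana transcripts that match the probe better. The arrays cannot tell these apart, and because leaves are bulk samples, fewer cells of a type cannot be told apart from less RNA per cell.

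All 4 arrays were deposited with the same 2% trimmed mean signal of 500, and all values below are signals on that scale, with the A. halleri arrays given first. Over 16656 probe sets tested, replicate arrays correlated at r = 0.931 in A. halleri and 0.953 in the hybrid, and A. halleri and hybrid arrays at 0.789 to 0.809. The median absolute log2 difference was 0.35 between the A. halleri arrays, 0.28 between the hybrid arrays and 0.68 between the groups. The 18 hybridization control probe sets, for RNA that is normally added in equal amounts to each hybridization, were 2.08-fold brighter in A. halleri than in the hybrid at this scaling. Scaling by these controls in place of the trimmed mean therefore moved the median difference of all probe sets from -0.19 to 0.87 on the log2 scale. Which scale is nearer to RNA per leaf was not tested, and directions that depend on it are stated. The 3′ probe set of the A. thaliana glyceraldehyde-3-phosphate dehydrogenase control was 2.95-fold higher in the hybrid, while the 5′ probe set for that transcript was 1.75-fold lower. A second set of controls for that enzyme went otherwise, with the 5′ probe set 2.08-fold higher in the hybrid and the 3′ probe set 1.01-fold apart. For the actin controls, the 3′ probe sets were 2.90-fold and 1.72-fold higher in the hybrid. Their 5′ probe sets were 1.21-fold higher and 1.21-fold lower, in the same order. Whether RNA quality or labelling differed between the groups was not tested. Of 96 genes read by several tested probe sets, 35 had probe sets of opposite sign, and most genes below were read by a single one.

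In the hybrid leaf, transcripts of glucosinolate synthesis, several cell-wall enzymes and the ubiquitin ligase gene RING1 were higher than in A. halleri. The cold-protection gene COR15B, the protochlorophyllide reductase gene PORB and the pyruvate decarboxylase gene PDC2 were lower. Of 68 chloroplast-encoded genes, 8 were called higher (11.8%), among them 4 NDH genes, and 16 lower (23.5%). With scaling by the hybridization controls, 25 of the 68 were called higher and 4 lower. limma called 1459 of 16656 probe sets higher in the hybrid (8.76%) and 1049 lower (6.3%), at a Benjamini-Hochberg adjusted p below 0.05. Together these are 15.1% of the probe sets. Groups did not overlap for 28.3% of probe sets with the hybrid above and for 41.3% with it below, and every called probe set was among these. The higher calls were larger, at a median of 1.93 on the log2 scale, where the lower ones had -1.47. A difference of at least 2 on the log2 scale, or 4-fold, was reached by 695 higher and 247 lower calls, and a difference of at least 4 by 89 and 12.

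**Figure D1:**
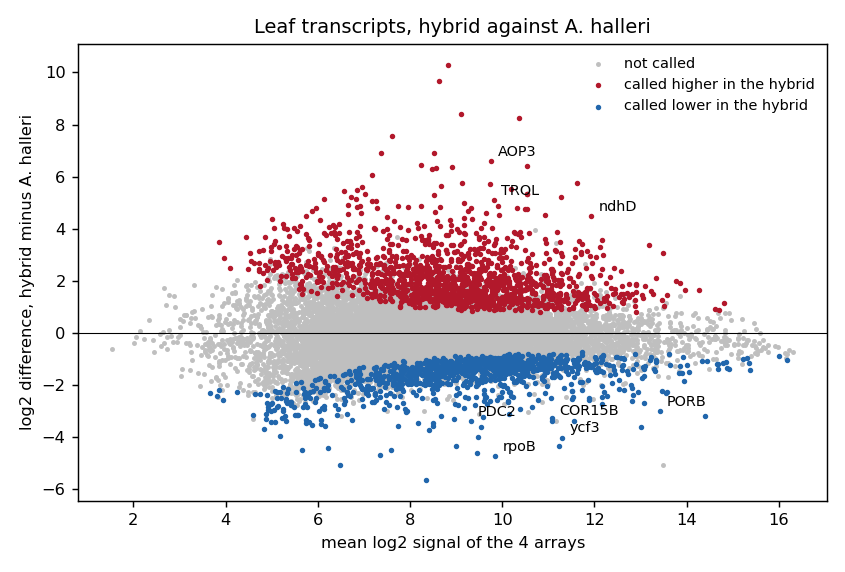
Log2 difference of each probe set, hybrid minus A. halleri (y axis), against its mean log2 signal over the 4 arrays (x axis). Each point is 1 of 16656 probe sets, red where called higher in the hybrid (1459), blue where called lower (1049) and grey where not called. The higher calls reach 10.30 and the lower ones -5.65.

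With scaling by the hybridization controls, all 1459 higher calls were still called higher, whereas 110 of the 1049 lower calls were still called, 939 were not, and 0 turned to higher calls. The total was then 5534 higher (33.5%) and 110 lower (0.666%) of 16522 probe sets. Each of the 4 arrays decided the counts to some degree: the higher calls numbered 774 or 645 without A. halleri replicate 1 or 2, and 445 or 476 without hybrid replicate 1 or 2. The lower calls numbered 202, 142, 151 and 129 in the same order, and 1915 or 1910 without A. thaliana replicate 1 or 2, whose spread enters the shared error estimate.

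The calls lay on all chromosomes. Among probe sets placed on chromosomes 1 to 5, 7.38% to 9.51% were called higher and 4.80% to 5.78% lower. Chloroplast genes stood at 11.8% and 23.5%, and mitochondrial genes at 5.56% and 11.1%. Calls were more frequent at high signal, from 5.94% higher and 3.60% lower in the dimmest quintile of probe sets to 12.1% and 12% in the brightest quintile.

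AOP3, a dioxygenase that turns methylsulfinyl glucosinolates into hydroxyalkyl forms, led the genes with a symbol. Its signals were 54.6 and 127 in A. halleri and 9714 and 8241 in the hybrid, a log2 difference of 6.59 ± 0.61 (SE, n = 2 per group), or 96.1-fold (limma, adjusted p = 0.000339). The A. thaliana arrays read 27.9 and 12, so both hybrid arrays stood above both arrays of either parent.

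TROL, a thylakoid protein that holds ferredoxin-NADP reductase at the membrane, gave 296 and 75.4 in A. halleri and 5590 and 5315 in the hybrid, 34-fold higher. RING1, a RING-finger ubiquitin ligase linked to pathogen-triggered cell death, gave 258 and 292 against 5807 and 10003, a log2 difference of 4.75 ± 0.46 (SE, n = 2 per group). The groups were far apart for both genes, and the A. thaliana arrays stood at 3603 and 2334 for TROL and at 8373 and 12898 for RING1, on the hybrid's side of A. halleri in each case. SFP1, a sugar transporter family member, read 13.9 and 20.1 against 640.1 and 589, with 348 and 742 in A. thaliana. CCB3, which helps attach a haem to cytochrome b6, read 8.74 and 33.7 against 394 on both hybrid arrays. For SFP1 and CCB3 at least 1 A. halleri array read near 9.24, the offset added before taking logs. Among the genes below, the same holds for AGL87, JAL33, EXPA4, UGT72B3 and CYP78A9. It also holds for the called nad1 probe set, AT5G38980 and the probe set with the largest difference of all. Such signals lie at the bottom of the array's range.

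AGL87, a MADS-box transcription factor, gave 18.8 and 13 in A. halleri against 289.5 and 379.6, and KELP, a transcriptional coactivator, gave 97 and 117 against 626 and 2499. For KELP the hybrid arrays were far from each other, and the lower of them was still above both A. halleri arrays. PMEAMT, a methyltransferase of phosphocholine synthesis, gave 248 and 476 against 5956 and 4095. JAL33, a jacalin-type lectin, gave 12 and 78.2 against 502 and 385, above the A. thaliana arrays at 57.2 and 34.5 as well. The call of PMEAMT ended without A. halleri replicate 1 (adjusted p = 0.0618) or hybrid replicate 1 (0.0666). That of JAL33 ended without A. halleri replicate 1 (0.116), hybrid replicate 1 (0.126) or hybrid replicate 2 (0.0897).

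**Figure D2:**
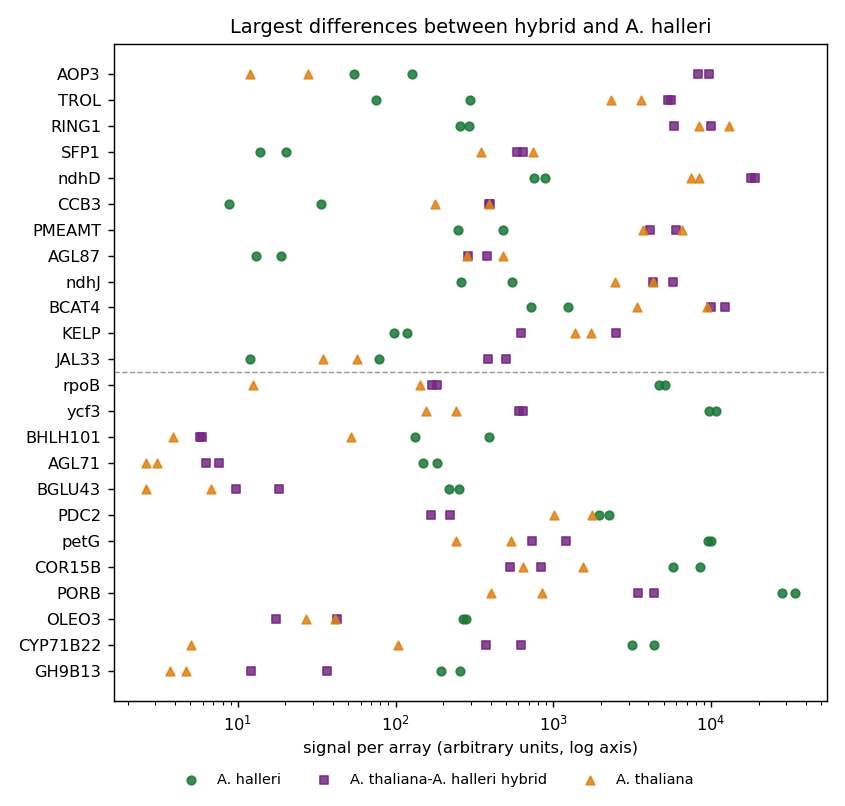
Signal per array on a log10 axis for the 24 genes with a symbol that had the largest called differences, 12 higher and 12 lower in the hybrid. Points are single arrays of A. halleri, the hybrid and A. thaliana. In all 24 the hybrid and A. halleri arrays do not overlap. Among the 12 higher genes, the hybrid was also called above A. thaliana for AOP3, ndhD and JAL33. Among the 12 lower genes, it was called above A. thaliana for ycf3, PORB and CYP71B22, and below A. thaliana for PDC2.

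Among the lower genes, PDC2, a pyruvate decarboxylase of ethanolic fermentation, was below both parents. Its signals were 1958 and 2244 in A. halleri, 221 and 169 in the hybrid and 1004 and 1766 in A. thaliana. The log2 difference from A. halleri was -3.38 ± 0.43 (SE, n = 2 per group), or 10.4-fold (limma, adjusted p = 0.00139), and that from A. thaliana was -2.73 ± 0.43 (adjusted p = 0.00921). These comparisons share the hybrid arrays.

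COR15B, a chloroplast protein that protects membranes during freezing, gave 5729 and 8490 in A. halleri against 834 and 533, a 10.3-fold lower level. The A. thaliana arrays read 1552 and 644. BGLU43, a beta-glucosidase family member, read 217 and 252 against 18.3 and 9.76. BHLH101, a transcription factor of the iron-deficiency response, read 389 and 132 against 5.79 and 5.89, and AGL71, a MADS-box factor, 184 and 148 against 7.59 and 6.24. In BGLU43, BHLH101 and AGL71 the hybrid signals lay at the bottom of the array's range, below the offset of 9.24 added before taking logs or near it.

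OLEO3, an oleosin of oil bodies, read 268 and 279 against 42.8 and 17.5. GH9B13, a glycosyl hydrolase of the endoglucanase family, read 193 and 254 against 36.5 and 12.1, and CYP71B22, a cytochrome P450, read 3151 and 4351 against 372 and 628. For all 3 genes the groups did not overlap. Some of the lower calls ended when 1 array was left out, in a fit that has only 1 array left in that group. The call of OLEO3 ended without hybrid replicate 2 (adjusted p = 0.0535), and that of GH9B13 without A. halleri replicate 2 (0.0608) or hybrid replicate 2 (0.0637). AGL71 lost its call without any of the 4 arrays (adjusted p 0.0685 to 0.0738), and BHLH101 without A. halleri replicate 1 (0.0903) or hybrid replicate 1 (0.0732) or 2 (0.0717). CYP71B22 lost it without any of the 4 arrays or either array of the A. lyrata hybrid (0.0513 to 0.170), and its adjusted p was 0.0866 on the control scale.

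The largest differences of all were in probe sets with no gene symbol, chosen here after their values were seen and given with no role unless the gene table names one. A probe set with no gene named here read 13.9 and 5.49 in A. halleri, 26304 and 20517 in the hybrid and 532 and 1218 in A. thaliana, a log2 difference of 10.30 ± 0.45 (SE, n = 2 per group). AT5G38980 read 16 and 5.86 against 15444 and 16526, and AT2G41090 read 93.5 and 54.2 against 23686 and 24945. AT5G38980 read 23123 and 17071 in A. thaliana, on the hybrid's side. For AT5G38980 and the probe set with no gene named, an A. halleri array read below the offset of 9.24, at the bottom of the array's range. AT1G54410, which the gene table also names HIRD11, a dehydrin, read 162 and 175 against 8069 and 8145. In the other direction AT3G62960 had the largest difference, with 1120.1 and 5800.4 in A. halleri against 35.4 and 49.3, but its A. halleri arrays were far apart and the adjusted p was 0.0484. AT2G43590 read 19226 and 42726 in A. halleri against 2472 and 2245, with 69.2 and 46.7 in A. thaliana.

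The chloroplast genome encodes subunits of the photosystems, the cytochrome b6f complex, ATP synthase, the NDH complex, an RNA polymerase and ribosomal proteins. Of 68 chloroplast-encoded genes tested, 8 were called higher and 16 lower (11.8% and 23.5%, against 8.76% and 6.3% of all probe sets). Their median was -0.41 on the log2 scale, where all probe sets tested had -0.19. On the control scale 25 were called higher and 4 lower, with a median of 0.65 against 0.87. With quantile normalization the chloroplast median was -0.07 and that of all probe sets -0.10, so its place relative to all probe sets turned. Leaving out 1 of the 4 arrays gave 4 to 5 higher and 4 to 10 lower calls, and leaving out either A. thaliana array gave 13 and 24.

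The NDH complex returns electrons to the plastoquinone pool around photosystem I. It held 4 of the 8 higher calls and no lower one among 9 genes tested. Of all probe sets, 8.76% were called higher. The calls of ndhK and ndhI were nearer the threshold than those of ndhD and ndhJ (limma, adjusted p = 0.0225 and 0.0383). ndhD read 756 and 886 in A. halleri and 19056 and 18008 in the hybrid, a log2 difference of 4.48 ± 0.25 (SE, n = 2 per group), or 22.4-fold (limma, adjusted p = 1.79e-05). ndhJ read 545 and 259 against 5738 and 4270, 12.9-fold higher. The hybrid arrays lay above the A. thaliana arrays for ndhD (8345 and 7466) and, by a narrower gap, at the edge of them for ndhJ (4269 and 2455). Not all members did so: the lowest difference in the group was -0.81, and that gene was not called. rps4, a small-subunit ribosomal protein, was also far apart at 2316 and 3645 against 29190 and 30597, with A. thaliana at 9656 and 8468.

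Photosystem II genes gave the opposite count, with 6 of 15 called lower and 0 higher, against 6.3% and 8.76% of all probe sets. Their differences ran from -2.70 for psbT, a small subunit of photosystem II, to 0.99. psbT read 26188 and 18765 in A. halleri, 4131 and 2795 in the hybrid and 2773 and 1365 in A. thaliana. None of the 5 photosystem I genes was called, at differences from -1.16 to 0.88. On the control scale 6 photosystem II genes were called higher and 1 lower, so the count for this group depended on the scaling.

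The 3 largest lower differences among chloroplast genes stayed called on both scales and without each array in turn. rpoB, a core subunit of the plastid RNA polymerase, read 5069 and 4702 in A. halleri against 169 and 182, a log2 difference of -4.73 ± 0.70 (SE, n = 2 per group). ycf3, an assembly factor of photosystem I, read 9629 and 10814 against 639 and 603, a difference of -4.02 ± 0.30 (limma, adjusted p = 0.0001). petG, a small subunit of cytochrome b6f, read 9511 and 10052 against 1195 and 735. In all 3 the A. thaliana arrays were lower still, at 12.5 and 142 for rpoB, 156 and 240.2 for ycf3 and 535 and 239.7 for petG. The subunits of the RNA polymerase did not move together: rpoA was called higher (4022 and 3314 against 10520 and 9988), rpoB and rpoC2 lower (4359 and 4602 against 2113 and 1911 for rpoC2). The calls of rpoA and rpoC2 ended without any 1 of the 4 arrays (adjusted p up to 0.133 and 0.172), that of rpoC2 also without either A. lyrata array and on the control scale (0.849).

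Side by side, the 68 genes had a median absolute difference of 0.80 from A. halleri and 1.08 from A. thaliana, where all probe sets tested had 0.68 and 0.55. Against A. thaliana, 19 of the 68 were called higher in the hybrid and 0 lower, where 4% of all probe sets were called higher and 2% lower. These comparisons share the hybrid arrays, and nothing is read from their difference.

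**Figure D3:**
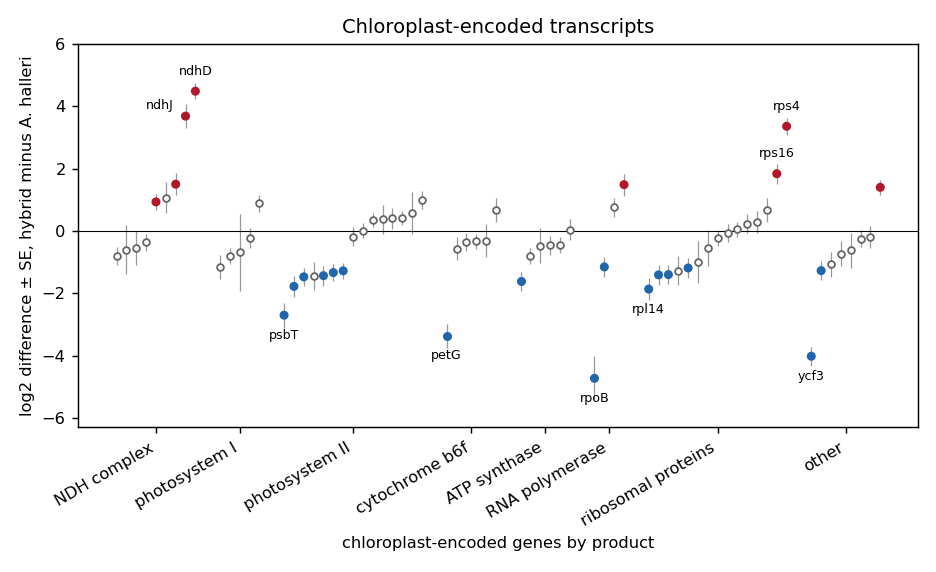
Log2 difference, hybrid minus A. halleri, with its SE for 68 chloroplast-encoded genes grouped by product. Red points are called higher (8), blue points lower (16) and open points not called. NDH genes hold 4 of the red points, and photosystem II genes 6 of the blue ones.

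Of 18 mitochondrial probe sets, 1 was called higher and 2 lower (5.56% and 11.1%, against 8.76% and 6.3% of all probe sets). nad4, a subunit of respiratory complex I, read 5287 and 4867 in A. halleri against 1124 and 697, a 5.68-fold lower level, and kept its call with each array left out. nad5 read 192 and 220.0 against 61.9 and 37.6, a difference of -1.90, but lost its call without any 1 of the 4 arrays (adjusted p up to 0.121) and on the control scale (0.136). One nad1 probe set was called higher, at 15 and 20.5 against 119.8 and 95.5, and likewise lost its call without any 1 of the 4 arrays (up to 0.141). The other nad1 probe sets that were tested ran from -0.98 to 1.52 and none was called.

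Nuclear genes of photosynthesis gave 2 higher and 1 lower calls among 13 tested, and 7 and 0 on the control scale. In lists of 13 genes or fewer a single gene makes up at least 7.69%, against 8.76% higher and 6.3% lower calls among all probe sets, so a count of 1 is not read as a property of the list. PRK, the Calvin cycle enzyme phosphoribulokinase, read 7562 and 6505 in A. halleri against 27300 and 28680, a log2 difference of 1.99 ± 0.27 (SE, n = 2 per group; limma, adjusted p = 0.00203). LHCB4.3, an antenna protein of photosystem II, read 1976 and 1179 against 8081 and 9148, 5.6-fold higher. Both kept their calls with each array left out and on the control scale. PSBY, a small photosystem II protein, read 56537 and 56954 against 30312 and 28044, a difference of -0.96 that became 0.10 on the control scale. Its call also ended without any 1 of the 4 arrays (adjusted p 0.137 to 0.195). RCA, which reactivates Rubisco, read 31182 and 30865 against 42732 and 48364 and was not called (adjusted p = 0.150), though it was called higher on the control scale (0.000597).

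In chlorophyll synthesis 2 of 8 genes were called higher and 1 lower (25% and 12.5%, against 8.76% and 6.3% of all probe sets). PORB, a protochlorophyllide reductase that works in the light, read 34029 and 28144 in A. halleri, 4347 and 3436 in the hybrid and 850.2 and 404 in A. thaliana. The hybrid stood 7.99-fold below A. halleri (log2 difference -3.0 ± 0.37, SE, n = 2 per group) and 2.70 above A. thaliana on the log2 scale, with no overlap on either side. HEMB1, which makes porphobilinogen, read 637 and 708 against 2585 and 2490.2, and CHLM, a magnesium protoporphyrin methyltransferase, 1434 and 1192 against 4554 and 5201. The calls of HEMB1 and CHLM ended without any 1 of the 4 arrays, at adjusted p of up to 0.135 and 0.157.

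Glucosinolates are sulphur-rich defence compounds of the cabbage family. All 4 of the genes of their synthesis that were tested were called higher, against 8.76% of all probe sets, with a median log2 difference of 2.71. All 4 were called on the control scale as well, where 33.5% of all probe sets were called higher and every higher call was kept. These 4 are a small part of the pathway, and 2 to 4 of them were called when any 1 array was left out, with 2 without A. halleri replicate 1 or hybrid replicate 1. Beside AOP3, BCAT4, an aminotransferase that starts the lengthening of the methionine side chain, read 1245 and 719 in A. halleri and 12288 and 10010 in the hybrid. That was 11.6-fold higher (limma, adjusted p = 0.00253), with 9431 and 3398 in A. thaliana. UGT74B1, which adds glucose to the thiohydroximate intermediate, read 367 and 486 against 1781 and 1410.0. AOP1, a dioxygenase encoded beside AOP3 in A. thaliana, read 116 and 127 against 434 and 486. UGT74B1 lost its call without A. halleri replicate 1 (adjusted p = 0.0510) or hybrid replicate 1 (0.0658), and AOP1 without any 1 of the 4 arrays (up to 0.186) or either A. lyrata hybrid array.

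Enzymes that modify small molecules were called in both directions, but the lower calls rested on the scaling. Of 35 UDP-glycosyltransferases, 6 were called higher and 2 lower, of 15 cytochromes P450 3 and 1, and of 11 glutathione S-transferases 2 and 1. In shares, 17.1%, 20% and 18.2% were called higher and 5.71%, 6.67% and 9.09% lower, where all probe sets had 8.76% and 6.3%. The median differences were -0.11, 0.96 and -0.18, and on the control scale 0.83, 1.99 and 1.49, with 12, 9 and 5 higher calls and 0 lower calls. Leaving out 1 of the 4 arrays gave 2 to 5, 1 to 2 and 0 higher calls in these families. UGT72B3, a relative of enzymes that glucosylate phenylpropanoids, read 12.8 and 11 against 155 and 160.2, and UGT87A2, linked to flowering time, 119.8 and 172 against 677 and 948. Both kept their calls with each array left out. CYP71B6 read 290.0 and 420.2 against 1169 and 1205 and kept its call too. CYP71B34 read 71.8 and 82.9 against 462 and 407, and CYP78A9, which promotes the growth of fruit and other organs, 14.9 and 27.5 against 185 on both hybrid arrays. CYP71B34 lost its call without any 1 of the 4 arrays (adjusted p up to 0.0842), and CYP78A9 without A. halleri replicate 1 (0.0807) or hybrid replicate 1 (0.0896) or 2 (0.0862).

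GSTU20, a tau-class glutathione S-transferase, read 953 and 749 in A. halleri against 8025 and 6529, with 6859 and 1222 in A. thaliana. GSTU23 read 75.6 and 97.1 against 240.0 and 298, and GSTF4 was lower at 1327 and 1603 against 481 and 612. In all 3 the groups were apart, but each call ended without any 1 of the 4 arrays, at adjusted p of up to 0.0839, 0.229 and 0.200. On the control scale GSTF4 was not called (0.463). The call of GSTU23 also ended without either A. lyrata hybrid array, and that of GSTF4 without A. lyrata replicate 1 or either A. lyrata hybrid array. CCOAMT, a caffeoyl-CoA methyltransferase, read 18882 and 15571 against 3641 and 3545, with 218 and 36.6 in A. thaliana. Its call ended without any 1 of the 4 arrays or either A. lyrata hybrid array (adjusted p 0.0521 to 0.143), and on the control scale the adjusted p was 0.115.

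Cell-wall genes gave 6 higher and 3 lower calls among 29 tested (20.7% and 10.3%, against 8.76% and 6.3% of all probe sets), with a median of 0.10. Expansins loosen the wall, and endotransglucosylases cut and rejoin its xyloglucan. EXPA4, an expansin, read 21.9 and 7.44 in A. halleri against 307 and 134, 9.33-fold higher, and kept its call with each array left out. EXGT-A3 and XTH32, both of the xyloglucan endotransglucosylase family, read 422 and 456 against 1772 and 3380.0, and 497 and 566 against 4564 and 2694. The hybrid exceeded A. halleri on both arrays in all 3. EXGT-A3 lost its call without hybrid replicate 2 (adjusted p = 0.0512) and XTH32 without hybrid replicate 1 (0.0627). Leaving out 1 of the 4 arrays gave the list 2 to 4 higher and 0 to 1 lower calls. On the control scale it had 11 higher and 1 lower.

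In the cytoskeleton, 2 of 9 tubulin and actin genes were called higher and 1 lower. Those are 22.2% and 11.1%, against 8.76% and 6.3% of all probe sets. TUA6, an alpha-tubulin, read 539 and 627 against 2566 and 2815, a log2 difference of 2.19 ± 0.23 (SE, n = 2 per group; limma, adjusted p = 0.000574). TUB6, a beta-tubulin, read 1040.5 and 1058 against 2422 and 1842. TUB5, another beta-tubulin, was lower at 3017 and 9736 against 1009 and 1515, although its A. halleri arrays were far apart. TUB6 lost its call without any 1 of the 4 arrays (adjusted p up to 0.198). TUB5 lost it without A. halleri replicate 2 (0.133) or either hybrid array (up to 0.143), and on the control scale (0.0903).

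Calcium signalling genes gave 4 higher and 2 lower calls among 13 tested (30.8% and 15.4%, against 8.76% and 6.3% of all probe sets), and 6 and 0 on the control scale. CML41, a calmodulin-like protein, read 253 and 194 in A. halleri against 855 and 2018, and GLR3.3, a glutamate-receptor-like channel that carries wound signals, 104 and 74.8 against 315 and 327. CML42, a calmodulin-like protein of trichomes, was lower at 1210.2 and 1285 against 335 and 400.3. The hybrid arrays of CML41 were far apart from each other, and neither overlapped A. halleri. CML41 lost its call without A. halleri replicate 2 (adjusted p = 0.0639) or hybrid replicate 2 (0.0743). GLR3.3 lost it without A. halleri replicate 2 or either hybrid array (0.0789 to 0.0855), and CML42 without hybrid replicate 1 (0.0508). Leaving out 1 of the 4 arrays gave 0 to 3 higher calls in the list, with 0 without A. halleri replicate 2 or hybrid replicate 2. On the control scale CML42 was not called (0.137).

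Genes of protein turnover gave 4 higher and 3 lower calls among 23 tested (17.4% and 13%, against 8.76% and 6.3% of all probe sets), and 9 and 0 on the control scale. Leaving out 1 of the 4 arrays gave 2 higher and 0 to 1 lower calls. UBC30, a ubiquitin-conjugating enzyme, read 145 and 139 against 1175 and 948, a log2 difference of 2.82 ± 0.28 (SE, n = 2 per group; limma, adjusted p = 0.00042). APG8H, of the ATG8 family that decorates autophagosomes, read 445 and 341 against 2676 and 2647. ATG3, which attaches lipid to ATG8 proteins, was lower at 2089 and 2164 against 740.5 and 883, so members of the same autophagy step were called in opposite directions. UBC30 and APG8H kept their calls with each array left out. ATG3 lost its call without any 1 of the 4 arrays (adjusted p 0.0826 to 0.135) and on the control scale (0.535).

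Metal homeostasis, in which A. halleri is known to differ from A. thaliana, gave 1 higher and 1 lower call among 10 tested. Those are 10% each, against 8.76% and 6.3% of all probe sets, and the list's median was -0.32. MT1C, a metallothionein, read 1406 and 875 in A. halleri, 7313 and 9514 in the hybrid and 13783 and 3732 in A. thaliana, a 7.46-fold difference from A. halleri. The lower call was BHLH101. ZIP6, of a family of zinc transporters, read 1102 and 999 against 680.1 and 516 and was not called (adjusted p = 0.162). The call of MT1C ended without A. halleri replicate 2 (0.0776), hybrid replicate 1 (0.0505) or hybrid replicate 2 (0.0717).

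Genes of DNA methylation and silencing gave 1 higher and 2 lower calls among 13 tested. Those are 7.69% and 15.4%, against 8.76% and 6.3% of all probe sets. NRPB6B, a subunit of the nuclear RNA polymerases, read 189.8 and 181 against 1147 and 1143, a 5.93-fold higher level that was called with each array left out. NRPE7, a subunit of the silencing polymerase Pol V, was lower at 737 and 805 against 289 and 261. AT1G28060, which the gene table also names RDM16, was lower at 474 and 484 against 161 and 186. NRPE7 and AT1G28060 lost their calls without any 1 of the 4 arrays (adjusted p up to 0.170 and 0.132), NRPE7 also without either A. lyrata array, and both on the control scale (0.432 and 0.427).

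Among the remaining groups, APS4, an ATP sulfurylase that starts sulphate assimilation, read 448 and 243 against 1399 and 1223. IAA18, a repressor of auxin responses, read 284 and 238 against 486 and 576, and AT5G48570, which the gene table also names ROF2, an FK506-binding protein in the heat shock list, 92.5 and 66.1 against 266 and 391. All 3 were called higher and all 3 lost the call without any 1 of the 4 arrays, at adjusted p of up to 0.170, 0.208 and 0.155. IAA18 also lost it without any A. lyrata or A. lyrata hybrid array. No gene was called among 7 of anthocyanin and flavonoid synthesis, 9 of jasmonate and ethylene response and 4 of cell division, with 2, 3 and 0 called higher on the control scale. The 4 cell division genes, which include Aurora kinases of chromosome segregation, all stood below A. halleri, at -1.90 to -0.71, and the median on the control scale was -0.15. So did 9649 of all 16656 probe sets tested, and nothing is read from the 4 genes. In cold and drought response, COR15B was the single call of 8. The dehydrin gene AT1G54410, called higher as given above, is outside that list, which does not hold its names. COR15A, encoded beside COR15B in A. thaliana, read 783 and 1416 against 806 and 577 and was not called (adjusted p = 0.597).

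**Figure D4:**
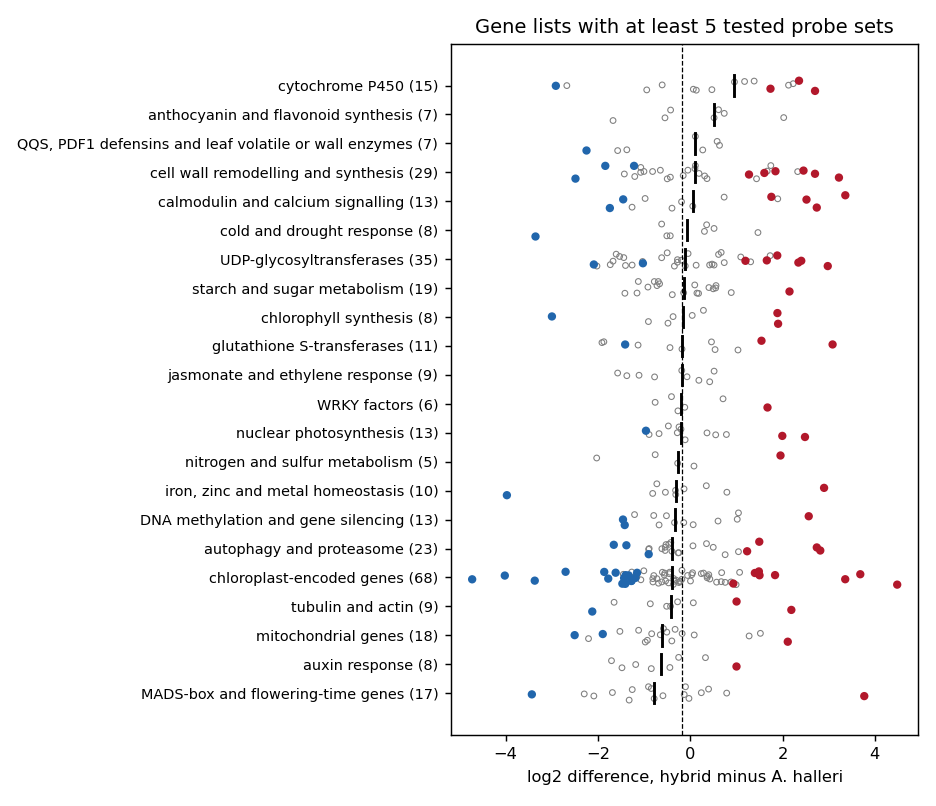
Log2 difference, hybrid minus A. halleri, of every tested member of the gene lists with at least 5 tested probe sets (number tested in brackets). Points are probe sets, red where called higher, blue where called lower and open where not called, the bars mark each list's median, and the dashed line marks the median of all probe sets, -0.19. Most lists hold points on both sides of that line, and the medians run from -0.78 for MADS-box and flowering-time genes to 0.96 for cytochromes P450.

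The leaf label was checked against cell-type markers, of which few were measured. The 2 mesophyll markers, RCA and PRK, summed to 37370.2 and 38743 in A. halleri and 70032 and 77044.0 in the hybrid. The vascular marker SWEET11, a sucrose exporter of phloem parenchyma, read 1291 and 842 against 3615 and 5878 and was called higher (limma, adjusted p = 0.00608). Both senescing-leaf markers tested, SAG101, a lipase-like partner of immune signalling, and WRKY53, a transcription factor of leaf ageing, were called higher. SAG101 read 29 and 87.1 against 177 and 247, and WRKY53 read 129 and 136 against 713 and 272. Together they summed to 158 and 224 in A. halleri and 889 and 519 in the hybrid. Neither of the 2 guard-cell markers tested was called, and with 1 more below the filter they summed to 509 to 604 against 349.98 to 446. The trichome marker TRY gave 641 and 772 against 1289 and 853, and the root marker EXPA7 gave 170.2 and 182 against 59.5 and 59.6, neither called, though TRY was called higher on the control scale (0.00508). None of the listed markers of flowers or of dividing cells was measured here, apart from the 4 cell division genes given above. The part of leaf age and vascular tissue in the other differences was not tested. The call of SWEET11 ended without A. halleri replicate 2 (adjusted p = 0.0578) or hybrid replicate 2 (0.0637). SAG101 lost its call without A. halleri replicate 1 (0.247), either hybrid array or any A. lyrata or A. lyrata hybrid array. WRKY53 lost it without hybrid replicate 1 (0.327) or any array of A. halleri, A. lyrata or the A. lyrata hybrid.

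The same step was then set beside its counterpart in the other cross, the A. thaliana-A. lyrata hybrid against A. lyrata, which shares no array with it. There 1720 probe sets were called higher (10.3%) and 1705 lower (10.2%). Higher in both crosses were 744, or 51% of the A. halleri cross's higher calls and 43.3% of the A. lyrata cross's. Lower in both were 386, or 36.8% and 22.6%. On the control scale 3419 were higher in both (61.8% and 65.5%) and only 15 lower in both (13.6% and 8.93%). Both comparisons use the error estimate shared by all 10 arrays, so these overlaps are not between independent sets of calls. The differences correlated at r = 0.53 across probe sets, which are not independent replicates and share the probes' A. thaliana design. Opposite calls were few, at 19 higher in the A. halleri cross and lower in the A. lyrata cross and 16 the other way. On the control scale they numbered 14 and 8.

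Among the genes named above, TUA6, PRK, BCAT4 and UGT74B1 were higher in both crosses, and rpoB, ycf3, petG and PORB were lower in both. BCAT4 differed by 3.54 in the A. halleri cross and 5.76 in the A. lyrata cross on the log2 scale, and ycf3 by -4.02 and -5.82. The crosses thus had these directions in common, and for none of these 8 genes was the difference between the crosses called.

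The difference between the crosses was itself tested by limma and called for 122 probe sets with the A. halleri cross above (0.732%) and for 107 with it below (0.642%), together 1.37%. All 35 opposite calls were among these, which adds little, since steps of opposite sign add up in this difference. On the control scale 18 of 22 opposite calls were. AOP3 differed by 6.59 in the A. halleri cross and by -1.53 in the A. lyrata cross, a difference of 8.11 ± 0.87 (SE; adjusted p = 0.00389). In the A. lyrata cross its signals were 147 and 64 in the parent and 51.6 and 13.4 in the hybrid, all far below the A. halleri hybrid. CHAT, an acetyltransferase that makes a leaf volatile ester, stood out through A. lyrata: it read 5738 and 4845 there and 173 and 383 in the A. lyrata hybrid, against 83.4 and 129 in A. halleri and 166 and 154 in its hybrid. Its step in the A. halleri cross, 0.58, was not called, but on the control scale it was 1.58 and called (adjusted p = 0.0160). CML41, UBC30 and SWEET11 were called higher in the A. halleri cross, and their differences in the A. lyrata cross were -0.99, -0.46 and -0.58, not called. For UBC30 the A. lyrata arrays read 1740.0 and 2010.3, already near the A. thaliana arrays at 1490.3 and 1763, where A. halleri read 145 and 139.

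Below in the A. halleri cross were BHLH101, ECS1, COR15B, AN and CaS. BHLH101 was at -3.97 in the A. halleri cross and 4.29 in the A. lyrata cross, a difference of -8.26 ± 1.14 (SE; adjusted p = 0.0114), with 6.22 and 20.2 in A. lyrata and 334 and 498 in its hybrid. The gene was therefore called in opposite directions in the crosses. COR15B read 228 on both A. lyrata arrays and 466 and 525 in that hybrid, while it was called lower in the A. halleri cross. ECS1 was called higher in both crosses but by different amounts, 1.56 and 6.40. AN, the ANGUSTIFOLIA gene of leaf shape, read 531 and 621 in A. halleri and 377 and 417 in its hybrid, and 15.9 and 8.08 in A. lyrata against 261 and 236 in that hybrid. CaS, a thylakoid calcium-sensing protein, read 6236 and 6094 against 7150 and 7250 in the A. halleri cross and 854 and 1109 against 17007 and 13444 in the A. lyrata cross. For AN and CaS the step in the A. halleri cross was not called, and that in the A. lyrata cross was. On the control scale the former step turned from -0.52 to 0.51 for AN, not called, and was 1.28 and called for CaS (adjusted p = 0.00674). The differences of AOP3, CHAT and ECS1 were called with each array left out. Those of UBC30, AN and CaS were not called without A. lyrata hybrid replicate 1, that of COR15B not without either A. lyrata hybrid array or hybrid replicate 2 of the A. halleri cross. That of BHLH101 was not called without A. halleri replicate 1 or any hybrid array, and neither was that of SWEET11 without any 1 of the 8 arrays of the crosses or that of CML41 without any but A. halleri hybrid replicate 1.

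**Figure D5:**
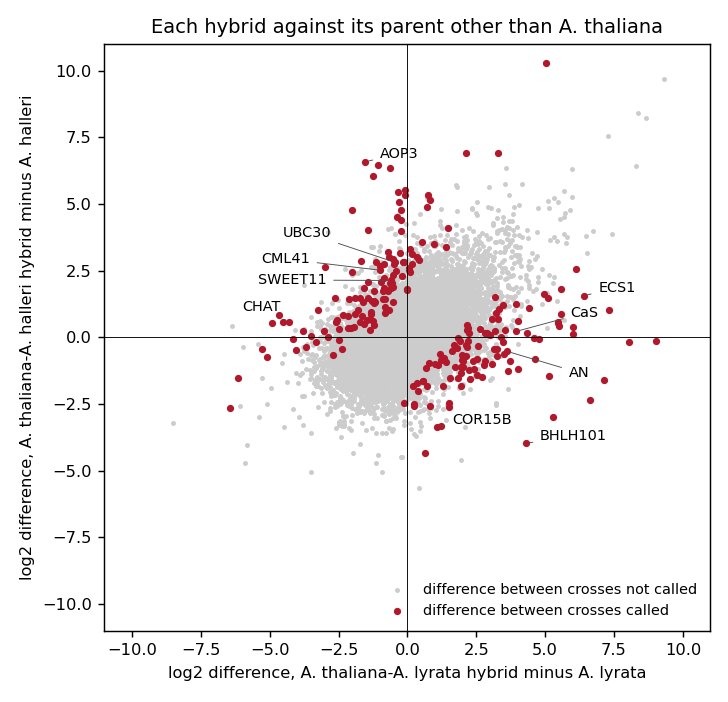
Log2 difference of the A. thaliana-A. halleri hybrid from A. halleri (y axis) against that of the A. thaliana-A. lyrata hybrid from A. lyrata (x axis), 1 point per probe set. Red points are the 229 probe sets for which the difference between the crosses was called. AOP3 lies at 6.59 on the y axis and -1.53 on the x axis, and BHLH101 at -3.97 and 4.29.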

How the data were processed

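RNA of mature leaves was measured on 10 Affymetrix ATH1 arrays, grouped by sample title. The deposited values are intensity values, 1 linear signal per probe set, which the authors produced in GCOS by MAS5, per the submitters' processing notes. Software versions and detection calls were not used here. The A. halleri, hybrid and 1 A. thaliana array were deposited at a 2% trimmed mean of 500, and all arrays were brought to it.

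Of 22810 probe sets, 64 controls were left out. Kept were 16656 (73.2%) with a mean log2 signal in at least 1 group at or above the 40th percentile (signal 104). The package limma 3.58.1 in R 4.3.3 (lmFit, then eBayes with a variance trend) was applied to log2(signal + 9.24), where 9.24 is the 10th percentile of all values. Folds are on this scale and understate changes of dim probe sets. All 10 arrays in 5 groups shared an error estimate per probe set (residual df 5), with Benjamini-Hochberg adjustment over all probe sets within a comparison and a threshold of 0.05. An exact permutation test of 2 against 2 arrays cannot pass that threshold. The script was tested on simulated data. The precision is limited by the number of arrays. The replicate numbers are only titles.

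Gene names came from a partial probe table: it names 1 gene for 13513 probe sets, more for 503 and none for 8730. The 1-gene probe sets matched in 13436 cases the TAIR10.1 gene table, used for names and chromosomes, and 1580 had a symbol. Lists with a member numbered 42 of 46. Members and lists were chosen with earlier results of these data known. Named genes are the 12 largest called differences in each direction among genes with a symbol, up to 3 called members per list by smallest adjusted p, and the 5 largest in each direction for the difference between the crosses. Others that are named were chosen after their values were seen. No sequences were used here. Alternatives changed the offset, filter, scaling, arrays fitted, replicate block, variance trend, probe set type, threshold and fold.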

Additional observations from a re-analysis of the deposited data

Results flagged for a closer look

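The A. thaliana-A. halleri and A. thaliana-A. lyrata hybrids differed in how far they stood from their parent other than A. thaliana, by limma's test of that difference. It was called for 122 probe sets with the A. halleri cross above and 107 with it below. Among genes with a symbol, the log2 difference between the crosses was 8.11 for AOP3, 4.89 for CHAT, 3.51 for CML41, 3.28 for UBC30 and 2.72 for SWEET11. It was -8.26 for BHLH101, -4.84 for ECS1, -4.46 for COR15B, -4.15 for AN and -3.72 for CaS. No group had the 4 arrays needed to look for an array far from the others.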

How the results depend on the processing

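Counts of calls depended on the number of arrays and on the scaling. The 1459 higher calls became 5534 with scaling by the hybridization controls, 2291 with only the 4 arrays, 2292 with only the 5 arrays deposited at 500 and 601 at an adjusted p below 0.01. The 1049 lower calls became 110, 2543, 2355 and 188 in the same order. Leaving out 1 array at a time gave 445 to 2047 higher and 129 to 1915 lower calls. The 122 and 107 calls of a difference between the crosses became 447 and 404 with only the 8 arrays of the 4 groups, 20 and 19 at an adjusted p below 0.01, and 13 to 444 and 11 to 408 with 1 array left out. The cause was not tested, apart from the arrays removed and the threshold moved by construction. The other offsets, filters, quantile normalization, the replicate block, no variance trend, plain probe sets only and a 2-fold minimum kept all 4 counts within 1.5 times. With the replicate number as a block the calls were 1383 higher and 903 lower, and 98 and 82 for the difference between the crosses. Same-numbered arrays of A. halleri and the hybrid did not deviate together (r = -0.02 across probe sets). Of 65 named genes, 29 kept their call with each array left out, and 36 did not. Of these 65 only PSBY turned in direction, from -0.96 to 0.10 with control scaling. AN, named for the difference between the crosses and not called against A. halleri, went from -0.52 to 0.51.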
